A study of Mus musculus with 40 samples.

Results

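Srebf1, Mlxipl, Nr1h3, Thrsp and Pnpla3 are 5 genes that sit at the control points of fat synthesis, and they were followed by their symbols in the count table of a mouse subcutaneous white adipose tissue (sWAT) study. They are 5 of the 34843 symbols in that table, and all 5 were among the 15807 genes with enough counts to be tested. They were chosen by name for their roles, not by their values, although earlier results of these data were known when the set was put together. The study sequenced bulk sWAT RNA from 5 groups of 8 libraries, 40 in all. It asked which genes stay altered and which return after treatment with incretin analogs, drugs that act on the receptors of gut hormones.

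The first group, ND, was fed the diet the labels call ND, and the second, HFD, was fed the diet the labels call HFD. Mice of the third group were fed HFD and given semaglutide, an agonist of the GLP-1 receptor. Mice of the fourth were fed HFD and given tirzepatide, a single peptide that activates the GIP and the GLP-1 receptors. The fifth group, the diet switch, was moved from HFD to ND. The series title speaks of a dietary intervention after incretin analog treatment, but the labels of the fifth group name no drug, so whether these mice had received one earlier is not known here. The labels give no dose, duration, strain, sex or age, and they do not say whether libraries of a group came from separate animals, so the p-values speak only of how far the libraries of a group spread. All comparisons of HFD-fed groups with HFD use the same 8 HFD libraries, and all comparisons with ND use the same 8 ND libraries.

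In adipocytes and liver, sugar is turned into fatty acids by a short chain of enzymes whose genes are switched on together. SREBP1, made from Srebf1, is held in the endoplasmic reticulum membrane, is carried to the Golgi by SCAP unless INSIG proteins retain it, and is cut there to release a transcription factor that answers to insulin. ChREBP, made from Mlxipl, answers to glucose metabolites and binds DNA as a pair with MLX. LXR alpha, made from Nr1h3, is a nuclear receptor for oxysterols that pairs with RXR and can itself switch on Srebf1. THRSP, also called Spot 14, is a small protein induced by thyroid hormone and carbohydrate that supports fatty acid synthesis in lipogenic tissues. PNPLA3 is a lipid droplet protein of the patatin family, and its gene is induced by feeding through SREBP1 and ChREBP.

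The libraries held 2115471 to 7445548 counts each, with a median of 3765320. Adipocyte genes were high in all 40 libraries, with 362099 counts of Adipoq and 292470 of Plin1 over the series. Skeletal muscle genes differed between libraries: the mean log2 CPM (counts scaled to library size) of 13 tested muscle markers had a median of 3.39 for ND, 1.59 for HFD, 1.47 for semaglutide, 5.43 for tirzepatide and 3.36 for the diet switch, and it exceeded 5 in 10 libraries (ND 6 and 8, HFD 4, tirzepatide 1, 4, 5 and 7, diet switch 1, 3 and 6). B cell genes were high in 4 libraries (ND 5 and semaglutide 1, 3 and 8), a measure that rests on Cd79b, the 1 of 5 listed B cell markers that was tested. Diet-switch libraries 3, 4 and 7 had stood apart in earlier results of these data. Mammary epithelial keratins were close to 0, with 95 counts of Krt8 and 36 of Krt14 in all 40 libraries together, and Cdh1 (342 counts) was the 1 of 10 listed mammary markers that was tested. Cdh1 rose by 1.69 with tirzepatide against HFD (edgeR adjusted p = 0.0364), and its log2 CPM had a median of 0.80 for ND, 0.04 for HFD, 1.49 for semaglutide, 1.96 for tirzepatide and 1.56 for the diet switch. Its part in the results was not tested. Results were also computed without the libraries high in muscle markers, without those high in B cell markers and without diet switch 3, 4 and 7. A difference is called, or passed, where the adjusted p of edgeR's quasi-likelihood test over the 15807 genes was below 0.05. Levels are CPM after TMM scaling, and fold changes are on the log2 scale. Because the tissue was sequenced in bulk, fewer cells of a type and less RNA per cell cannot be told apart.

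The start sites of Mlxipl and Thrsp are shown first, because these genes fell in HFD against ND and rose with tirzepatide against HFD. Sequences are from RefSeq on build GRCm38.p6. Each run gives the 250 bases before an annotated start, 5′ to 3′ on the strand of the gene, and capitals mark matches, on either strand, to an E-box, a sterol element, a CCAAT box or a nuclear receptor half-site. Mlxipl has 2 annotated starts, at chr5:135089640-135089889 and chr5:135106641-135106890, both on the plus strand, and the Thrsp run is chr7:97417551-97417800 on the minus strand.

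Mlxipl, first start: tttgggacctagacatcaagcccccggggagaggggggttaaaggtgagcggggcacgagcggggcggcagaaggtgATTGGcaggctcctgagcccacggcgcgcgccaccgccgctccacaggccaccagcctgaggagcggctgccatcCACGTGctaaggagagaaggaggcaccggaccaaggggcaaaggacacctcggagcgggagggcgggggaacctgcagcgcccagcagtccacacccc
Mlxipl, second start: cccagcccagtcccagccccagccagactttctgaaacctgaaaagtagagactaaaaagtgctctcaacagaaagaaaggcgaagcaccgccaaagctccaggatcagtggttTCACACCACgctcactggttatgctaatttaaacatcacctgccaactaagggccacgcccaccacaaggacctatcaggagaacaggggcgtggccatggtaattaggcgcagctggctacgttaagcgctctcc
Thrsp: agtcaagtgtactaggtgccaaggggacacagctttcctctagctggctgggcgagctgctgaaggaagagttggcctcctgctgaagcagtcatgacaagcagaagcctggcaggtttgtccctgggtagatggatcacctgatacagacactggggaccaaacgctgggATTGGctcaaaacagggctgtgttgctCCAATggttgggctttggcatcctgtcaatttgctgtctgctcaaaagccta

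The first Mlxipl run holds the E-box CACGTG, the letters bound by many basic helix-loop-helix factors, 98 bases before the start. The second holds TCACACCAC, a match to the sterol element letters TCACNCCAC, 136 bases before the start. CCAAT boxes, written CCAAT or, for the other strand, ATTGG, begin 79 and 52 bases before the Thrsp start and 173 bases before the first Mlxipl start. Over all 32817 RefSeq windows of 300 bases searched in the same way, CACGTG was in 7.15%, TCACNCCAC in 1.24%, CCAAT in 37.4% and the nuclear receptor half-site AGGTCA in 16.3%. The GC box GGGCGG was also searched and is left in lower case: it begins 188 and 38 bases before the first Mlxipl start, and 35.6% of all windows held it. No window of the 5 members held AGGTCA. A match is a description of the letters and not a binding site. All 5 members had at least 1 RefSeq window.

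Libraries were made by counting transcript 3′ ends, so the forms of SREBP1 or of ChREBP that start at different first exons were summed into 1 value per gene. Srebf1 lies at chr11:60199089-60222581 on the minus strand (GRCm38, GENCODE M21), and its 3′ end overlaps the 3′ end of Rai1 on the other strand. Whether the counting used strand is not given in the sources used here, so reads in this overlap cannot be told apart. Rai1 had group means of 11.38 to 17.66 CPM, and its level followed Srebf1 among libraries of a group with r = 0.583 over 40 libraries, given as a description. Pnpla3 (chr15:84167837-84187236, plus strand) contains the processed pseudogene Gm20369 on the other strand, which had 2725 counts over the 40 libraries. Mlxipl lies at chr5:135089890-135138382 on the plus strand, Nr1h3 at chr2:91184061-91202834 on the minus strand and Thrsp at chr7:97412938-97417730 on the minus strand, and overlapping genes of these 3 held at most 432 counts in all.

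**Figure D1:**
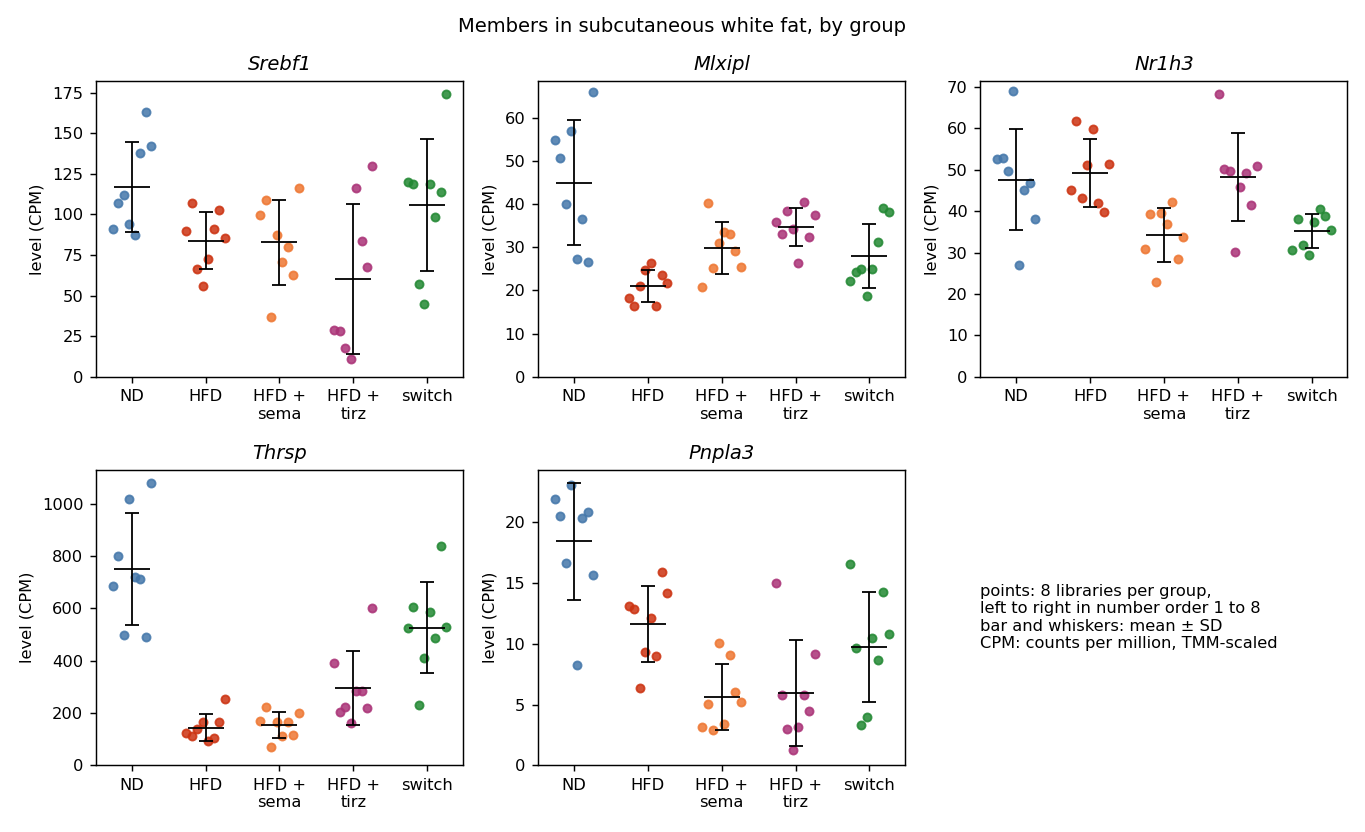
Each point is 1 library, in CPM, for the 5 members in the 5 groups of 8, and bars mark the group mean with its SD. Thrsp and Mlxipl in HFD lie wholly below ND, and the 8 tirzepatide libraries of Srebf1 run from 11.1 to 130 CPM.

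Thrsp and Mlxipl fell in HFD against ND, so 2 of the 5 members fell and 3 did not pass, beside 4.5% of all genes tested that were called in that comparison. The median log2 fold change of the 5 was -0.67, beside -0.04 over all genes. Semaglutide against HFD gave 1 that fell (Nr1h3), beside 4.15% of all genes. Tirzepatide against HFD gave 2 that rose (Mlxipl and Thrsp) and 1 that fell (Pnpla3), beside 20.5%. The diet switch against HFD gave 1 that rose (Thrsp) and 1 that fell (Nr1h3), beside 23.8%. Against ND, 3 members fell with semaglutide (Mlxipl, Thrsp and Pnpla3, beside 2.64%), 2 with tirzepatide (Thrsp and Pnpla3, beside 10.1%) and 3 in the diet switch (Mlxipl, Nr1h3 and Pnpla3, beside 14.8%), and none rose. No test compared these counts with those of all genes. Without the 10 libraries high in muscle markers, the counts were the same for HFD against ND (2 fell), 2 fell with semaglutide against HFD, and none fell with tirzepatide or the diet switch against HFD or in the diet switch against ND, while 2 in place of 3 fell with semaglutide against ND, also without the libraries high in B cell markers. Without diet switch 3, 4 and 7, none fell in the diet switch against either HFD or ND. Without the 4 libraries high in B cell markers, semaglutide against HFD gave 1 that rose (Mlxipl) and none that fell. Calls over all genes changed as well, and the shares given beside counts are from all 40 libraries. Without diet switch 3, 4 and 7, calls in the diet switch dropped from 3759 to 1148 against HFD and from 2338 to 112 against ND. Without the libraries high in muscle markers, 1666 genes in place of 3246 were called with tirzepatide against HFD.

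THRSP promotes fatty acid synthesis, and its gene showed the largest fold changes of the 5 members. In ND the 8 libraries ran from 491 to 1080 CPM with a median of 715, and in HFD they ran from 94.8 to 255 with a median of 131. No HFD library reached the lowest ND library. The log2 fold change of HFD against ND was -2.37 ± 0.25 (SE, n = 8 against 8), a 5.18-fold lower level, with an edgeR adjusted p of 2.1e-08 that was the third smallest among all genes tested. In the semaglutide group Thrsp ran from 71.9 to 224 CPM with a median of 167, which overlapped HFD except for semaglutide 3, the lowest, which was below every HFD library. The difference from HFD was 0.08 on the log2 scale, with a 95% interval of -0.40 to 0.57 (edgeR adjusted p = 0.894). With tirzepatide the libraries ran from 162 to 600 CPM with a median of 253, and all 8 were above the HFD median. Thrsp rose by 1.03 ± 0.24 against HFD (edgeR adjusted p = 0.0021). In the diet switch it ran from 232 to 837 CPM with a median of 528. This was 1.86 ± 0.25 above HFD (edgeR adjusted p = 9.98e-07) and 0.51 ± 0.24 below ND, a difference that did not pass the threshold (edgeR adjusted p = 0.141). Against ND, Thrsp was lower by 2.29 with semaglutide (edgeR adjusted p = 8.31e-08), where the groups did not overlap, and fell by 1.34 with tirzepatide (edgeR adjusted p = 0.000365).

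Ordered by mean level, Thrsp was highest in ND at 750.8 ± 215 CPM (SD, n = 8), followed by the diet switch at 526.8 ± 173, tirzepatide at 296.6 ± 141, semaglutide at 153.7 ± 50.2 and HFD at 144.9 ± 51.9. Of the 4 neighbouring pairs in this order, the pair tirzepatide and semaglutide passed the threshold. The diet switch exceeded semaglutide by 1.78 ± 0.25 with no overlap (edgeR adjusted p = 2.05e-05). The difference between the diet switch and tirzepatide was 0.83 (edgeR adjusted p = 0.105), and it passed when tirzepatide 8 or diet switch 3 was left out. Over 10 other settings it ran from 0.82 to 1.02, did not pass in 6 and passed in the rest. Those that passed included the fit without diet switch 3, 4 and 7. Of 13 tested muscle markers, 3 rose with tirzepatide (beside 20.5% of all genes called) and 2 rose in the diet switch (beside 23.8%), both against HFD. Without the 10 libraries high in muscle markers, the Thrsp difference was 1.22 for tirzepatide against HFD (edgeR adjusted p = 0.00612) and 2.06 for the diet switch against HFD (edgeR adjusted p = 9.75e-06).

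Mlxipl, the gene of the glucose-responsive factor ChREBP, fell in HFD against ND and rose with tirzepatide against HFD. In ND it ran from 26.7 to 66.1 CPM with a median of 45.4, and in HFD from 16.3 to 26.4 with a median of 21.4. The 2 groups did not overlap, by a narrow margin. The log2 fold change was -1.10 ± 0.17 (SE, n = 8 against 8), a 2.14-fold lower level (edgeR adjusted p = 2.71e-05). With tirzepatide the libraries ran from 26.4 to 40.5 CPM with a median of 35.1, and each one exceeded every HFD library. The margin was again narrow, since tirzepatide 5 and HFD 5 were both at 26.4 CPM after rounding. Mlxipl thus rose by 0.73 ± 0.17 with tirzepatide against HFD (edgeR adjusted p = 0.0021). With semaglutide Mlxipl ran from 20.9 to 40.4 CPM with a median of 30.1, and 7 of 8 libraries were above the HFD median. The difference of 0.50 ± 0.17 did not pass (edgeR adjusted p = 0.0814), and it passed without the 4 libraries high in B cell markers, at 0.65 (edgeR adjusted p = 0.0371). In the diet switch it ran from 18.8 to 39.1 CPM with a median of 25, and the difference of 0.41 ± 0.17 did not pass (edgeR adjusted p = 0.0738). It passed when diet switch 4 was left out, at 0.48 (edgeR adjusted p = 0.0476).

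Against ND, Mlxipl remained lower by 0.68 ± 0.17 in the diet switch (edgeR adjusted p = 0.00628), and all 8 libraries were below the ND median. This call ended without the libraries high in muscle markers (fold change -0.56, edgeR adjusted p = 0.0857) and without diet switch 3, 4 and 7 (-0.67, edgeR adjusted p = 0.0808). Semaglutide was lower than ND by 0.59 (edgeR adjusted p = 0.0438), a call that held in 4 of the 16 fits that left out 1 library (ND 5, 6 or 7, or semaglutide 2) and ended without the libraries high in muscle markers (-0.54, edgeR adjusted p = 0.154) or in B cell markers (-0.52, edgeR adjusted p = 0.155). Tirzepatide differed from ND by -0.37 (edgeR adjusted p = 0.156). The mean levels were 44.95 ± 14.5 CPM in ND, 34.83 ± 4.39 in tirzepatide, 29.85 ± 6.08 in semaglutide, 27.99 ± 7.43 in the diet switch and 21.06 ± 3.77 in HFD (SD, n = 8 each), and no neighbouring pair in that order passed the threshold.

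Nr1h3, the gene of the oxysterol receptor LXR alpha, had similar means in ND, HFD and tirzepatide and fell in semaglutide and the diet switch against HFD. It ran from 26.9 to 69.1 CPM in ND (median 48.2), from 39.8 to 61.7 in HFD (median 48.1) and from 30.1 to 68.2 in tirzepatide (median 49.4). These 3 ranges overlapped almost wholly. The difference of HFD from ND was 0.05, with a 95% interval of -0.25 to 0.35 (edgeR adjusted p = 0.899), and it turned to -0.02 without the libraries high in muscle markers and to -0.03 without those high in B cell markers. With semaglutide the libraries ran from 22.8 to 42.2 CPM with a median of 35.3, and in the diet switch from 29.5 to 40.5 with a median of 36.5. All 8 libraries of each of these groups were below the HFD median, though the ranges overlapped with HFD. Nr1h3 fell by 0.53 ± 0.15 with semaglutide (edgeR adjusted p = 0.0349) and by 0.48 ± 0.15 in the diet switch (edgeR adjusted p = 0.0174), both against HFD.

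Neither Nr1h3 difference held in every fit. B cell markers were high in semaglutide 1, 3 and 8. Without the 4 libraries high in B cell markers the semaglutide difference was -0.42 (edgeR adjusted p = 0.173), and the call also ended when HFD 2, 5 or 8 or semaglutide 1, 3, 7 or 8 was left out. In the diet switch it was -0.45 (edgeR adjusted p = 0.081) without the libraries high in muscle markers and -0.44 (edgeR adjusted p = 0.126) without diet switch 3, 4 and 7. The part of B cells or muscle in these results was not tested. Against ND, Nr1h3 in the diet switch was lower by 0.43 ± 0.15 (edgeR adjusted p = 0.0471), a call that held in 4 of 16 fits without 1 library (ND 5 or 8, or diet switch 2 or 6). Semaglutide against ND gave -0.48 (edgeR adjusted p = 0.0822). Mean levels were 49.25 ± 8.19 CPM in HFD, 48.17 ± 10.6 in tirzepatide, 47.62 ± 12.2 in ND, 35.25 ± 4.15 in the diet switch and 34.23 ± 6.56 in semaglutide (SD, n = 8 each). Only ND and the diet switch, of the 4 neighbouring pairs, passed.

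Pnpla3, the gene of a lipid droplet protein, had its lowest levels in the 2 drug groups. It ran from 8.29 to 23.1 CPM in ND (median 20.5), from 6.4 to 15.9 in HFD (median 12.5) and from 3.3 to 16.6 in the diet switch (median 10.1). These ranges overlapped. With semaglutide it ran from 2.93 to 10.1 CPM with a median of 5.13, and with tirzepatide from 1.23 to 15 with a median of 5.12. All 8 libraries of each drug group were below the ND median. Against ND, Pnpla3 was lower by 1.72 ± 0.32 with semaglutide (edgeR adjusted p = 0.000565) and by 1.67 ± 0.32 with tirzepatide (edgeR adjusted p = 0.000658). Against HFD it fell by 1.00 ± 0.32 with tirzepatide (edgeR adjusted p = 0.0234). That call ended when tirzepatide 3 or 4 was left out and, at -0.97, without the libraries high in muscle markers (edgeR adjusted p = 0.0722).

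With semaglutide the Pnpla3 difference from HFD was -1.05 ± 0.32 (edgeR adjusted p = 0.0521), and it passed in all but 3 of 10 other settings. It did not pass without the libraries high in B cell markers, and over the 10 settings it ran from -1.10 to -0.81. HFD differed from ND by -0.67 ± 0.31 (edgeR adjusted p = 0.246), although all 8 HFD libraries were below the ND median. The diet switch differed from HFD by -0.26 ± 0.31 (edgeR adjusted p = 0.596) and was lower than ND by 0.92 ± 0.31 (edgeR adjusted p = 0.0381). The last call ended without the libraries high in muscle markers (-0.91, edgeR adjusted p = 0.0673), without diet switch 3, 4 and 7 (-0.71, edgeR adjusted p = 0.288) and in 9 fits that left out 1 library, namely ND 1, 2, 3, 4, 6 or 7 or diet switch 3, 4 or 6. Mean levels ran from 18.44 ± 4.81 CPM in ND through 11.62 ± 3.13 in HFD, 9.733 ± 4.54 in the diet switch and 5.953 ± 4.37 in tirzepatide to 5.636 ± 2.71 in semaglutide (SD, n = 8 each), with no neighbouring pair past the threshold.

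Srebf1, the gene of the insulin-responsive factor SREBP1, passed the threshold in none of the 10 comparisons of the main edgeR fit. It ran from 87.5 to 163 CPM in ND (median 109), from 55.6 to 107 in HFD (median 87.5) and from 36.7 to 116 in semaglutide (median 83.6). The diet switch ran from 44.6 to 174 CPM with a median of 116, and tirzepatide from 11.1 to 130 with a median of 47.9. All 8 HFD libraries were below the ND median, while every group overlapped every other. The difference of HFD from ND was -0.48 ± 0.33, with a 95% interval of -1.15 to 0.19 (edgeR adjusted p = 0.489). The 8 tirzepatide libraries, numbered 1 to 8, had 28.5, 28.4, 17.4, 11.1, 116, 83.9, 67.3 and 130 CPM. Libraries 1 to 4 were thus below the lowest library of each other group, and libraries 5 to 8 were within the range of the diet switch. The tirzepatide mean was 60.33 ± 46.1 CPM (SD, n = 8), a coefficient of variation of 76.4%. Its difference was -0.46 ± 0.33 against HFD (edgeR adjusted p = 0.343) and -0.94 ± 0.33 against ND (edgeR adjusted p = 0.0653). The second difference passed when tirzepatide 5 or 8 was left out. Over 10 other settings it ran from -1.36 to -0.73, did not pass in 7 and passed in the rest. Means in the other groups were 116.7 ± 27.7 CPM in ND, 105.7 ± 40.5 in the diet switch, 83.92 ± 17.8 in HFD and 82.75 ± 26.2 in semaglutide, and no neighbouring pair passed.

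**Figure D2:**
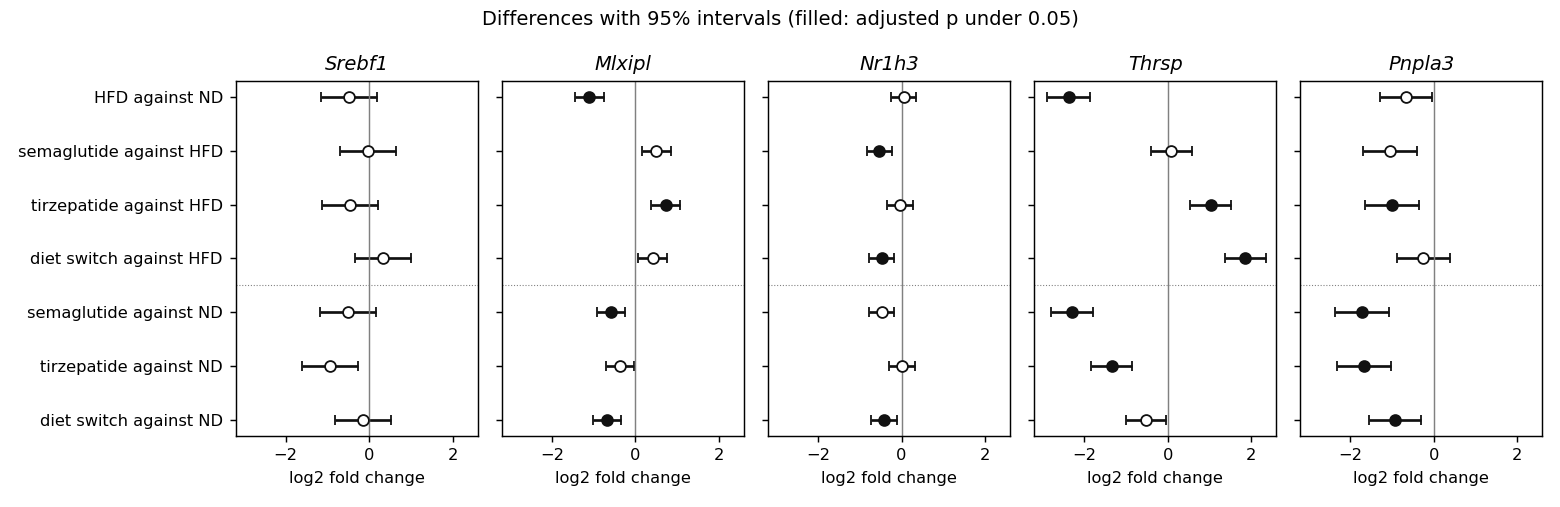
Each point is the log2 fold change of 1 member in 1 comparison from the edgeR fit, with its 95% interval. Filled points passed an adjusted p of 0.05 over 15807 genes, and the interval of Thrsp in HFD against ND lies farthest from 0, around -2.37.

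The 2 drugs were compared directly, at doses and durations that the labels do not give. Semaglutide activates the GLP-1 receptor, and tirzepatide activates the GIP receptor as well. The 1 pair of compounds was tested for the 5 members with p-values adjusted over all 15807 genes, and 2 members were higher with tirzepatide, beside 10% of all genes called. Thrsp was higher by 0.95 ± 0.24 (edgeR adjusted p = 0.0107), with 7 of 8 tirzepatide libraries above the semaglutide median. Nr1h3 was higher by 0.49 ± 0.15 (edgeR adjusted p = 0.0324), a call that ended without the libraries high in B cell markers (0.37, edgeR adjusted p = 0.149) or in muscle markers (0.56, edgeR adjusted p = 0.0836) and when semaglutide 1, 3 or 7 or tirzepatide 1 or 3 was left out. For Mlxipl the difference was 0.22, with a 95% interval of -0.12 to 0.56. For Srebf1 it was -0.44, with an interval of -1.12 to 0.23, and for Pnpla3 0.05, with an interval of -0.63 to 0.72. These intervals do not show that the drugs act alike on the 3 genes. The diet switch against semaglutide gave 1 member that rose, Thrsp, beside 13.3% of all genes, and against tirzepatide none passed, beside 0.399%.

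Genes around the 5 proteins were read from lists, which were also put together with earlier results known. The lists hold binding partners and relatives, and also genes that act beside the proteins without being their partners. On the ChREBP partner list these include the glucose transporter gene Slc2a4, and around THRSP the deiodinase gene Dio2. MLX, the obligate DNA-binding partner of ChREBP, is encoded by Mlx, which averaged 17.61 ± 5.02 CPM in ND and 9.297 ± 2.14 in HFD (SD, n = 8 each), a fall of 0.92 (edgeR adjusted p = 0.00215). It rose by 0.66 with tirzepatide against HFD (edgeR adjusted p = 0.0139). With semaglutide the difference was 0.51 (edgeR adjusted p = 0.131). Mlxip, which encodes the related factor MondoA, differed by 0.00 between HFD and ND (95% interval -0.32 to 0.33). Of 6 tested genes on the ChREBP partner list (8 were listed), 2 fell in HFD against ND (beside 4.5% of all genes called). None of the 6 passed with semaglutide against HFD (beside 4.15%), and 3 rose in each of tirzepatide (beside 20.5%) and the diet switch (beside 23.8%) against HFD. Without the libraries high in muscle markers, 1 fell in HFD against ND and 2 rose in each of the last comparisons, and without diet switch 3, 4 and 7, 2 rose in the diet switch. Slc2a4, the insulin-responsive glucose transporter GLUT4, was among those that rose, by 0.78 with tirzepatide (edgeR adjusted p = 0.00023) and by 0.59 in the diet switch (edgeR adjusted p = 0.00371).

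Among 10 genes that process or accompany SREBP, none passed in HFD against ND, beside 4.5% of all genes called. Against HFD, 1 fell with semaglutide (beside 4.15% of all genes called), 1 rose and 2 fell with tirzepatide (beside 20.5%), and 2 rose and 3 fell in the diet switch (beside 23.8%). The diet switch count was 0 that rose and 1 that fell without diet switch 3, 4 and 7. Without the libraries high in muscle markers, 1 rose and 2 fell in the diet switch, and 1 rose and 1 fell with tirzepatide. With the libraries high in B cell markers left out, 1 rose and 3 fell in each of these comparisons. Insig1 encodes a protein that retains SCAP and SREBP in the endoplasmic reticulum. It was lower than HFD in all 3 other HFD-exposed groups and was singled out after its values were seen. Its mean was 204.9 ± 77 CPM in HFD, 89.64 ± 41.3 with semaglutide, 90.84 ± 34.6 with tirzepatide and 83.88 ± 40.9 in the diet switch (SD, n = 8 each). The differences from HFD were -1.19 (edgeR adjusted p = 0.0105), -1.17 (edgeR adjusted p = 0.00325) and -1.29 (edgeR adjusted p = 0.00124). Without the libraries high in muscle markers, the tirzepatide difference no longer passed (edgeR adjusted p = 0.0519). Srebf2, which encodes the SREBP of cholesterol synthesis, differed by 0.03 between HFD and ND (95% interval -0.33 to 0.38).

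Of 8 tested LXR partners, none passed in HFD against ND (beside 4.5% of all genes called), 1 rose with semaglutide (beside 4.15%) and 2 rose in each of tirzepatide (beside 20.5%) and the diet switch (beside 23.8%), all against HFD. The share of 2 in 8 is near the background in the last comparisons. Without the libraries high in muscle markers none rose with semaglutide, and without those high in B cell markers 1 fell in HFD against ND. The largest rise among these was in Nrip1, which encodes the nuclear receptor corepressor RIP140: it averaged 142.1 ± 36.4 CPM in HFD and 350.7 ± 75.9 with tirzepatide (SD, n = 8 each), a rise of 1.30 (edgeR adjusted p = 4.41e-07). In the diet switch it rose by 1.20 (edgeR adjusted p = 2.26e-06). Nr1h2, which encodes LXR beta, passed in none of the comparisons with HFD or ND, and its difference of HFD from ND was -0.23 (95% interval -0.52 to 0.06). Of 4 listed genes around THRSP, 1 rose and 1 fell in HFD against ND, beside 4.5% of all genes called. Without the libraries high in B cell markers 2 of these 4 fell. Mid1ip1, the one that fell, encodes the close relative of THRSP that forms a complex with it. It averaged 68.01 ± 28.8 CPM in ND and 30.71 ± 6.42 in HFD (SD, n = 8 each), a fall of 1.15 (edgeR adjusted p = 0.0025). In the diet switch Mid1ip1 differed from HFD by -0.32 (edgeR adjusted p = 0.373) and was lower than ND by 1.47 (edgeR adjusted p = 0.000254). With tirzepatide its mean was 18.73 ± 7.24 CPM (SD, n = 8), below that of HFD, while Thrsp rose. Against HFD, 1 of the 4 genes fell with semaglutide (beside 4.15%) and 1 in the diet switch (beside 23.8%). With tirzepatide 1 rose and 2 fell (beside 20.5%). The tirzepatide count was 0 rose and 1 fell without the libraries high in muscle markers, and 1 rose and 1 fell without those high in B cell markers. Dio2, the deiodinase that makes active thyroid hormone within cells, was higher in HFD than ND by 2.06 (edgeR adjusted p = 0.00645). It was lower than HFD by 3.40 with semaglutide (edgeR adjusted p = 0.000102), from a mean of 9.536 ± 5.12 CPM in HFD to 0.8607 ± 0.781 with semaglutide (SD, n = 8 each). Both differences rest on low counts. Dio2 had 0 to 9 counts per semaglutide library and 1 to 21 per ND library, where its mean was 2.219 ± 2.04 CPM. Of 3 tested relatives of PNPLA3 (5 were listed), including Pnpla2, the adipose triglyceride lipase ATGL, none passed in any of the 10 comparisons. Of all genes, 0.399% to 23.8% were called in these comparisons.

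**Figure D3:**
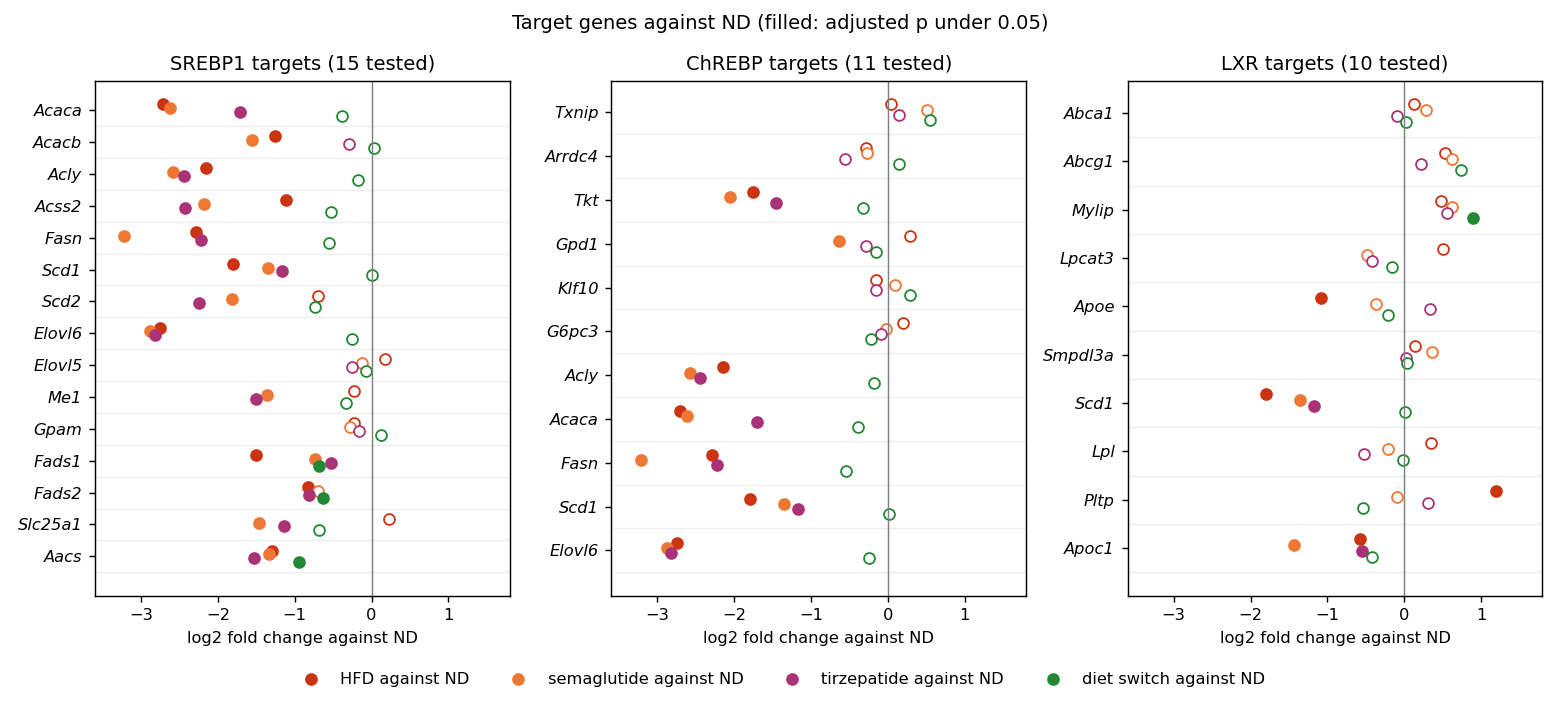
Each point is the log2 fold change against ND of 1 listed target gene of SREBP1, ChREBP or LXR in each of the other 4 groups. Most SREBP1 and ChREBP targets lie below 0 in HFD, semaglutide and tirzepatide and nearer 0 in the diet switch.

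Target genes of the 3 factors gave different counts. The lists overlap, since Acaca, Acly, Fasn, Scd1 and Elovl6 stand on the SREBP1 and the ChREBP lists. Of 15 SREBP1 targets, 10 fell in HFD against ND with none that rose (beside 4.5% of all genes called, and 9 without the libraries high in muscle markers), and the median was -1.26 beside -0.04 over all genes. Against ND, 12 of the 15 were lower with semaglutide (beside 2.64%) and 12 with tirzepatide (beside 10.1%). In the diet switch 3 were lower (beside 14.8%, near the share of the list). There 1 was left without the libraries high in muscle markers and none without diet switch 3, 4 and 7. Against HFD, 1 rose and 4 fell with semaglutide (beside 4.15%), 4 rose and 5 fell with tirzepatide (beside 20.5%), and 7 rose and 1 fell in the diet switch (beside 23.8%). Leaving out the libraries set apart above gave 1 rose and 3 to 5 fell with semaglutide, 3 or 4 rose and 5 fell with tirzepatide, and 7 or 8 rose and at most 1 fell in the diet switch. Of 11 tested ChREBP targets (13 were listed), 6 fell in HFD against ND (beside 4.5% of all genes called). Lower than ND were 7 with semaglutide (beside 2.64%), 6 with tirzepatide (beside 10.1%) and none in the diet switch (beside 14.8%). Against HFD, 1 of the 11 fell with semaglutide (beside 4.15% of all genes called), 2 rose and 1 fell with tirzepatide (beside 20.5%, near the share of the list), and 6 rose in the diet switch (beside 23.8%). Without the libraries high in muscle markers, 2 of the 11 fell with semaglutide, 1 rose and none fell with tirzepatide, and 6 were lower than ND with semaglutide, while without those high in B cell markers 1 also fell in the diet switch. Acaca encodes acetyl-CoA carboxylase, which makes malonyl-CoA for fatty acid synthesis. It averaged 434.4 ± 93.5 CPM in ND and 66.16 ± 4.9 in HFD, and the other HFD-exposed groups had 70.5 ± 24.2 (semaglutide), 132.6 ± 56 (tirzepatide) and 330.6 ± 199 (diet switch; SD, n = 8 each). Its fall in HFD against ND was 2.71 (edgeR adjusted p = 8.27e-09), and its rise against HFD was 1.00 with tirzepatide (edgeR adjusted p = 0.0051) and 2.32 in the diet switch (edgeR adjusted p = 1.67e-07). Fads1, the delta-5 desaturase, was lower in HFD than ND by 1.51 (edgeR adjusted p = 3.63e-08) and rose with semaglutide by 0.77 (edgeR adjusted p = 0.00489), with tirzepatide by 0.98 (edgeR adjusted p = 6.27e-05) and in the diet switch by 0.82 (edgeR adjusted p = 0.000589), all against HFD.

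LXR targets were mixed. Their list is not wholly separate from the lists above or from the members, so its counts are not independent of theirs. Of 10 tested (12 were listed), 1 rose and 3 fell in HFD against ND (beside 4.5% of all genes called), 1 rose and 3 fell with semaglutide against HFD (beside 4.15%), and 2 rose and 2 fell in each of tirzepatide (beside 20.5%) and the diet switch (beside 23.8%) against HFD. With the libraries high in muscle markers left out, none rose in HFD against ND, 1 rose with tirzepatide and 1 fell in the diet switch. Without those high in B cell markers 2 fell with semaglutide and 3 fell with tirzepatide, and without diet switch 3, 4 and 7, 1 fell in the diet switch. Apoe, the apolipoprotein that carries lipid out of cells, averaged 1715 ± 302 CPM in HFD and 3631 ± 640 in ND (SD, n = 8 each), and it was lower in HFD by 1.08 (edgeR adjusted p = 3.46e-06). It rose against HFD by 0.72 with semaglutide (edgeR adjusted p = 0.0024), by 0.87 in the diet switch (edgeR adjusted p = 4.91e-05) and most with tirzepatide, to 4604 ± 1050 CPM (SD, n = 8, edgeR adjusted p = 1.21e-08). Lpcat3, a phospholipid remodelling enzyme that was also singled out after its values were seen, moved the other way, with differences from HFD of -0.98 with semaglutide (edgeR adjusted p = 0.00368) and -0.92 with tirzepatide (edgeR adjusted p = 0.00181). The Nr1h3 difference between tirzepatide and HFD was -0.04 (edgeR adjusted p = 0.892), and 0.03 without the libraries high in muscle markers.

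The genes whose log2 CPM followed each member most closely over the 40 libraries were named by the highest Pearson r among 12753 genes whose mean was 2 or more log2 CPM, as a description that shares libraries, depth and group differences. For Thrsp these were Acaca (r = 0.937, and 0.683 with group means removed), Fasn (0.868 and 0.685) and Tkt (0.864 and 0.546). Srebf1 was followed by Smim26 (0.899 and 0.861), Slc25a22 (0.880 and 0.893) and Cs (0.865 and 0.824), and removing group means left these values much as they were. For Mlxipl, where removing group means lowered the first value most, the genes were Fads1 (0.707 and 0.276), Neat1 (0.706 and 0.516) and Tspo (0.695 and 0.538). Nr1h3 was followed by Mrps12 (0.756 and 0.725), Tmem205 (0.732 and 0.658) and Phb (0.732 and 0.693), and Pnpla3 by Rbp4 (0.858 and 0.712), Cox6a1 (0.831 and 0.730) and Aldh1l1 (0.826 and 0.723).

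**Figure D4:**
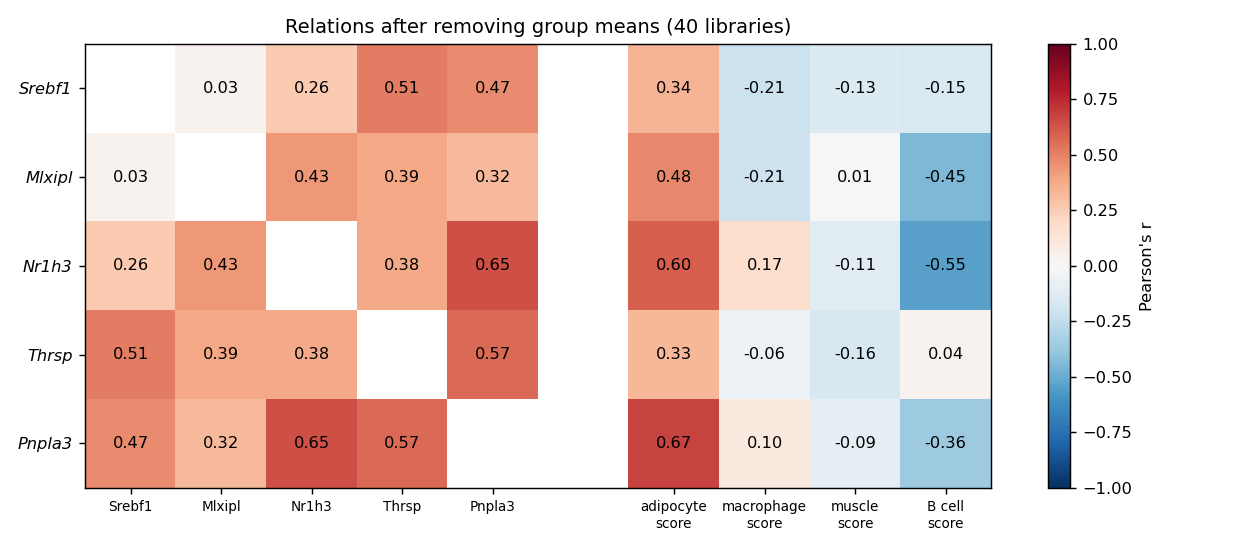
Each cell gives Pearson r over 40 libraries after each group's mean was subtracted, between members on the left and between members and marker scores on the right, where a score is the mean log2 CPM of a marker list. Nr1h3 with Pnpla3 (0.645) and Pnpla3 with the adipocyte score (0.673) are the highest values in the 2 blocks.

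Among libraries of the same group, 8 of the 10 pairs of members varied together past an adjusted p of 0.05 (Pearson r of log2 CPM with group means removed, 40 libraries, two-sided, 100000 permutations within groups, Benjamini-Hochberg over the 10 pairs). Pairs of other genes were not tested in this way, so no background share stands beside this count. Whether the members vary together more than other genes of the tissue was not tested. The strongest pair was Nr1h3 and Pnpla3, with r = 0.645 (permutation p = 2e-05, adjusted 0.0002) and Spearman's rho = 0.519 (permutation p = 0.00112), and r = 0.521 without the 2 libraries farthest from the median, ND 5 and tirzepatide 4. Within single groups of 8 it ran from 0.204 in HFD to 0.906 in ND. Thrsp and Pnpla3 followed with r = 0.567 (permutation p = 0.00066, adjusted 0.0033), rho = 0.502 (permutation p = 0.00183) and r = 0.471 without diet switch 3 and tirzepatide 8. Srebf1 and Thrsp gave r = 0.512 (permutation p = 0.00212, adjusted 0.00707), rho = 0.415 (permutation p = 0.0129) and r = 0.363 without tirzepatide 4 and 8. That relation was not alike in the 5 groups, with r of 0.966 in semaglutide, 0.640 in tirzepatide, 0.659 in the diet switch, -0.108 in HFD and -0.229 in ND, differences that were not tested. Srebf1 and Mlxipl did not pass, at r = 0.032 (permutation p = 0.811), rho = -0.025 (permutation p = 0.870) and r = 0.009 without tirzepatide 4 and 8.

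The remaining pairs were weaker. Srebf1 with Pnpla3 gave r = 0.475 (adjusted permutation p = 0.0297) and rho = 0.339 (adjusted permutation p = 0.0854), and r = 0.295 without tirzepatide 4 and 8 (adjusted permutation p = 0.185). Without the 10 libraries high in muscle markers Srebf1 with Pnpla3 gave r = 0.571 (adjusted permutation p = 0.0103), and within single groups of 8 it ran from 0.278 in ND to 0.851 in the diet switch. Mlxipl with Nr1h3 gave r = 0.432 (adjusted permutation p = 0.0252) and rho = 0.460 (adjusted permutation p = 0.018), and r = 0.361 without ND 5 and 7. Mlxipl with Thrsp gave r = 0.389 (adjusted permutation p = 0.0252) and rho = 0.396 (adjusted permutation p = 0.0298), and r = 0.374 without the same 2 libraries. Nr1h3 with Thrsp (r = 0.377, adjusted permutation p = 0.0297; rho = 0.304, adjusted permutation p = 0.0899) and Mlxipl with Pnpla3 (r = 0.322, adjusted permutation p = 0.0403; rho = 0.336, adjusted permutation p = 0.0598) passed by Pearson's r alone and not without their 2 farthest libraries, at r = 0.356 and 0.299. Srebf1 with Nr1h3 did not pass, at r = 0.263 (adjusted permutation p = 0.151), rho = 0.072 and r = 0.096 without tirzepatide 4 and 8, but r was 0.271 without the libraries high in muscle markers, which passed (adjusted permutation p = 0.0429).

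Marker scores moved with some members. A score is a mean of gene levels and does not count cells. Of the 10 adipocyte markers themselves, 3 rose and 3 fell in HFD against ND, beside 4.5% of all genes called. Over 20 relations of members with marker scores, tested in the same way, Pnpla3 followed the adipocyte score with r = 0.673 (permutation p = 1e-05, adjusted 0.0002, the smallest p these permutations can give), rho = 0.681 and r = 0.690 without tirzepatide 4 and diet switch 3. Nr1h3 followed it with r = 0.596 (adjusted permutation p = 0.0046), rho = 0.510 (adjusted permutation p = 0.0131) and r = 0.435 without ND 5 and tirzepatide 4 (adjusted permutation p = 0.056). Mlxipl followed it with r = 0.484 (adjusted permutation p = 0.0204) and rho = 0.410 (adjusted permutation p = 0.0592), and r = 0.437 without ND 5 and 7 (adjusted permutation p = 0.056). Against the B cell score, Nr1h3 gave r = -0.545 (adjusted permutation p = 0.0144) and rho = -0.452 (adjusted permutation p = 0.0409), Mlxipl r = -0.452 (adjusted permutation p = 0.0291) and Pnpla3 r = -0.365 (adjusted permutation p = 0.0403), while rho for the last 2, at -0.316 and -0.321, did not pass (adjusted permutation p = 0.136 for each). Without the 2 farthest libraries, the Nr1h3 and Mlxipl values no longer passed, at -0.412 and -0.401. No member passed with the muscle or macrophage score. The adipocyte score itself had group medians of 9.84 to 10.11 and the macrophage score 5.55 to 5.78. In 10 further relations, chosen after seeing the data, no member passed with library depth or with the mitochondrial share of counts, whose group means ran from 10.9% to 15.2%.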

How the data were processed

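RNA of 40 sWAT samples was extracted with Nucleozol, made into QuantSeq 3′ libraries and sequenced on an Illumina HiSeq, per the labels' protocols. The genome build was mm10, per the submitters' processing notes. No aligner, annotation or strand setting is named in the labels. Whole-number counts per gene symbol, not normalized, were deposited by the authors, and those counts were used. A deposited table of normalized values was not used, and 16 of its columns match no sample here.

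Genes were kept with filterByExpr (15807 of 34843, holding 99.39% of the counts). Counts were scaled by TMM and fitted in 1 model of 5 group means over 40 libraries with edgeR 4.0.16 in R 4.3.3, by the robust quasi-likelihood test with Benjamini-Hochberg adjustment. The SE is the fold change divided by the square root of F. Log2 CPM used a prior count of 2. The steps were tested on simulated data for HFD against ND. Of genes changed 1.5-fold 9 of 67 were called, at 2-fold 41 of 67 and at 4-fold 58 of 66. Of the unchanged genes 7 were called. Small true differences can therefore fail to pass. No 2 libraries of a group agreed within sampling noise (chi-square per degree of freedom of at least 3.99). The alternatives were DESeq2 1.42.0, its size factors, voom of limma 3.58.1, other filters, the 2 groups alone, a replicate block and left-out libraries. The named genes were the members, the 3 genes most like each by r, and from each list up to 4 genes with the smallest adjusted p in HFD against ND, with close relatives. The members and lists were chosen with earlier results of these data known.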

Additional observations from a re-analysis of the deposited data

Results flagged for a closer look

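In 1 of the 25 sets of 8 libraries checked (5 members in 5 groups), the highest library stood apart from the rest. Thrsp in HFD library 8 was at 255 CPM, where the nearest library was at 167, a gap of 0.549 of the range of the group against a critical share of 0.526 for 8 libraries. Chance flags about 1 in 20 such sets. Without this library the Thrsp log2 fold change of HFD against ND was -2.54 (edgeR adjusted p = 1.21e-08), beside -2.37 with it.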

How the results depend on the processing

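Over 10 other settings and 10 comparisons, the 5 members gave 443 results with the same direction and side of the threshold, 25 that lost the threshold, 21 that gained it and 11 that changed sign; with 1 library left out in turn these were 724, 47, 9 and 20. Mlxipl and Thrsp in HFD against ND and in tirzepatide against HFD, and Thrsp in the diet switch against HFD, kept theirs in all of these fits. Pnpla3 with semaglutide against HFD gained the threshold with DESeq2 (-1.06), DESeq2 size factors in edgeR (-1.06), the 2 groups alone (-1.04), voom (-1.02), without muscle-high libraries (-1.10) and without diet switch 3, 4 and 7 (-1.05). Pnpla3 in HFD against ND gained it with the 2 groups alone (-0.67) and voom (-0.71), Mlxipl with semaglutide against HFD with the 2 groups alone (0.51), voom (0.57) and without B cell-high libraries (0.65), and Srebf1 with tirzepatide against HFD with voom (-0.84). Nr1h3 with semaglutide against HFD lost it with no filter (-0.53) and without B cell-high libraries (-0.42), Pnpla3 with tirzepatide against HFD without muscle-high libraries (-0.97), and Nr1h3 in the diet switch against HFD without muscle-high libraries (-0.45) and without diet switch 3, 4 and 7 (-0.44). Signs turned for Nr1h3 in HFD against ND (-0.02 without muscle-high, -0.03 without B cell-high libraries), with tirzepatide against HFD (0.03 without muscle-high libraries), with tirzepatide against ND (-0.05 with voom, -0.08 without B cell-high libraries) and in the diet switch against semaglutide (-0.08 without B cell-high libraries), for Pnpla3 with tirzepatide against semaglutide (-0.29 with voom, -0.21 without B cell-high libraries), and for Srebf1 in the diet switch against ND (0.07 without muscle-high libraries, 0.11 without diet switch 3, 4 and 7). Among listed genes, Mid1ip1 in the diet switch against HFD turned to 0.01 without diet switch 3, 4 and 7, and Mlxip in HFD against ND, at 0.00, to -0.00 with DESeq2 size factors and with the 2 groups alone. The cause was not tested.

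Leaving out 1 library gave ranges of -0.04 to 0.14 for Nr1h3 in HFD against ND, -0.11 to 0.09 for Srebf1, -0.58 to -0.46 for Nr1h3, -0.01 to 0.25 for Thrsp and -1.22 to -0.95 for Pnpla3 with semaglutide against HFD, -0.12 to 0.04 for Nr1h3 and -1.27 to -0.84 for Pnpla3 with tirzepatide against HFD, and 0.33 to 0.48 for Mlxipl in the diet switch against HFD. It also gave -0.07 to 0.11 for Nr1h3 with tirzepatide against ND, -0.22 to 0.21 for Pnpla3 with tirzepatide against semaglutide and -0.02 to 0.09 for Nr1h3 in the diet switch against semaglutide.

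Relations within groups that did not pass changed sign with the muscle score for Srebf1 (0.063), Mlxipl (-0.112 and -0.070), Nr1h3 (0.104), Thrsp (0.011) and Pnpla3 (0.042 and 0.080), with the B cell score for Thrsp (-0.021 and -0.058) and with the macrophage score for Pnpla3 (-0.069 and -0.185), without the 2 farthest or the muscle-high libraries.

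Replicate numbers run from 1 to 8 in each group. Libraries of the same number in different groups had a mean r of 0.029 over 80 pairs, from -0.349 to 0.259. For different numbers the mean was -0.004 over 560 pairs. An r above 0.1 was seen in 18 of the 80 pairs and in 65 of the 560. Among 8 possible numbers, 11 of 40 libraries had their closest partner under their own. Whether the number marks a shared factor was not tested. With the number as a block, Pnpla3 with semaglutide against HFD was -1.03 and passed (edgeR adjusted p = 0.04), and Pnpla3 with tirzepatide against semaglutide was -0.04. Among the members, depth limits Pnpla3 most, with as few as 5 counts in a tirzepatide library and 12 in a semaglutide library.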
